A study of Homo sapiens with 6 samples.

Results

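The 40 genes described here belong to the making of melanosomes and melanin or, for 2 of them, to the wider melanocytic programme. They were taken by gene symbol from a count table of 58870 genes, and every member was found. The list holds 3 melanin enzymes, 5 proteins of the melanosome matrix and membrane, 7 ion and solute transporters, 7 subunits of BLOC-1, 5 of BLOC-2 and BLOC-3, 4 of AP-3, 7 genes of Rab-driven transport together with LYST, and 2 further genes of the melanocytic programme. Their expression was compared between WM164 cells overexpressing GFP and WM164 cells overexpressing T-MGM, with 3 RNA-seq libraries in each group. WM164 is an established human melanoma cell line, grown here in RPMI with 5% serum. T-MGM is a tethered dimer in which the melanoma isoform of MITF, the transcription factor that governs melanocyte differentiation, is joined by a flexible linker to MAFG, a small MAF protein. According to the study's methods it was delivered by a lentiviral vector with an EF1α promoter and blasticidin selection, and a GFP vector with the same promoter and marker is described there; the cells were drug-selected populations, with no cloning step described. The comparison asks what a forced pairing of MAFG with MITF does to the genes that MITF is best known for.

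Melanin is made inside melanosomes, organelles related to lysosomes. PMEL fibrils first form a scaffold in an early melanosome, then sorting complexes (the BLOCs, named for the biogenesis of lysosome-related organelles, and the adaptor AP-3) and the small GTPases RAB32 and RAB38 deliver the melanin enzymes and the transporters that set lumenal pH and copper, and finally RAB27A, MLPH and MYO5A tether the filled melanosome to actin. MITF switches on many of these genes in melanocytes and in melanoma cells of the melanocytic state, often through E-box and M-box letters close to the start site.

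The GFP libraries held 35057239 to 38738065 counts each and the libraries labelled T-MGM 44577774 to 59250663, and mitochondrial genes took 10.7 to 10.9% and 11.7 to 12% of them. MAFG stood at 2535, 2397 and 2442 normalized counts (counts divided by the size factor of each library) in the GFP libraries and at 2396, 2351 and 2327 in those labelled T-MGM, a log2 fold change of -0.06 (SE 0.04, adjusted p = 0.236 by DESeq2). MITF stood at 19111, 19169 and 19204 against 20447, 20121 and 20240 normalized counts, a log2 fold change of 0.08 (SE 0.02, adjusted p = 4.80e-07 by DESeq2), while its TPM (transcript abundance scaled for length and depth) was lower, at 133 against 138. MAFG was thus not higher and MITF differed by 1.06-fold, whether reads of the construct were counted to these genes was not tested, and every direction given here is between libraries as labelled. The 8 melanocyte markers (MITF, SOX10, PAX3, S100B, TYR, PMEL, MLANA and DCT) were all detected. They summed to 1163 to 1185 TPM in the GFP libraries and 989 to 1025 in those labelled T-MGM. TYR, PMEL, MLANA and DCT are also members, so this sum is not independent of the results below. Besides MITF, SOX10 was higher (log2 fold change of 0.11, DESeq2 adjusted p of 4.24e-10), S100B was lower (-0.21, 4.35e-17) and PAX3 did not pass (-0.02, 0.776). Keratinocyte (4 genes), immune (4 genes) and endothelial (3 genes) markers summed to at most 1.3 TPM in any library, with PTPRC and CD3E at or under 2 counts. The 4 fibroblast markers summed to 3.57 to 4.58 TPM and 4.4 to 6.1 TPM, nearly all of it LUM, with COL3A1 at or under 2 counts. Of the markers of these other cell types LUM (0.77, DESeq2 adjusted p of 1.47e-13) and COL1A1 (1.23, 6.08e-04) were higher on the log2 scale. LYZ (-1.32, 7.83e-05 in the same test) was lower, and the part of these genes in the results was not tested. Whether the replicates are separate cultures is not stated, so p-values measure the spread between these libraries.

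Pigment genes were mostly lower or little changed in the libraries labelled T-MGM, and DCT, a melanin enzyme, had by far the largest change among members above the count floor (a gene was at the floor where every library of either group had at most 3 counts). Of the 38 members with a DESeq2 adjusted p, 14 (36.8%) were lower and 5 (13.2%) were higher at an adjusted p (Benjamini-Hochberg over all genes tested) at or under 0.05 (a call in what follows), against 19.2% of all 19135 genes tested that were lower and 19.2% that were higher. Among the 12654 genes with a mean of at least 50 normalized counts, a level that 37 members also reached, the shares were 27.6% lower and 26.4% higher. With a change over 2-fold required as well, 1 member (2.63%) was lower and 0 were higher, against backgrounds of 1.36% and 3.26%. By the order of the libraries alone, all 3 libraries labelled T-MGM lay below all 3 GFP libraries in 20 of the 38 members (52.6%) and above them in 5 (13.2%), against 23.4% of all genes tested that lay below and 23.4% that lay above. The 20 include SLC24A4, which was at the floor. This share was not taken among genes with a mean of at least 50 normalized counts. The median log2 fold change was -0.06 over the members and -0.0027 over all genes tested. Most changes were small, with 33 of 37 members within 0.5 of 0 on the log2 scale. In bulk RNA, fewer cells that express a gene and less RNA of it per cell cannot be told apart. In TPM, QPCT was the 1 member that passed as higher, on a scale where the median gene itself lay 0.13 lower (log2).

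**Figure D1:**
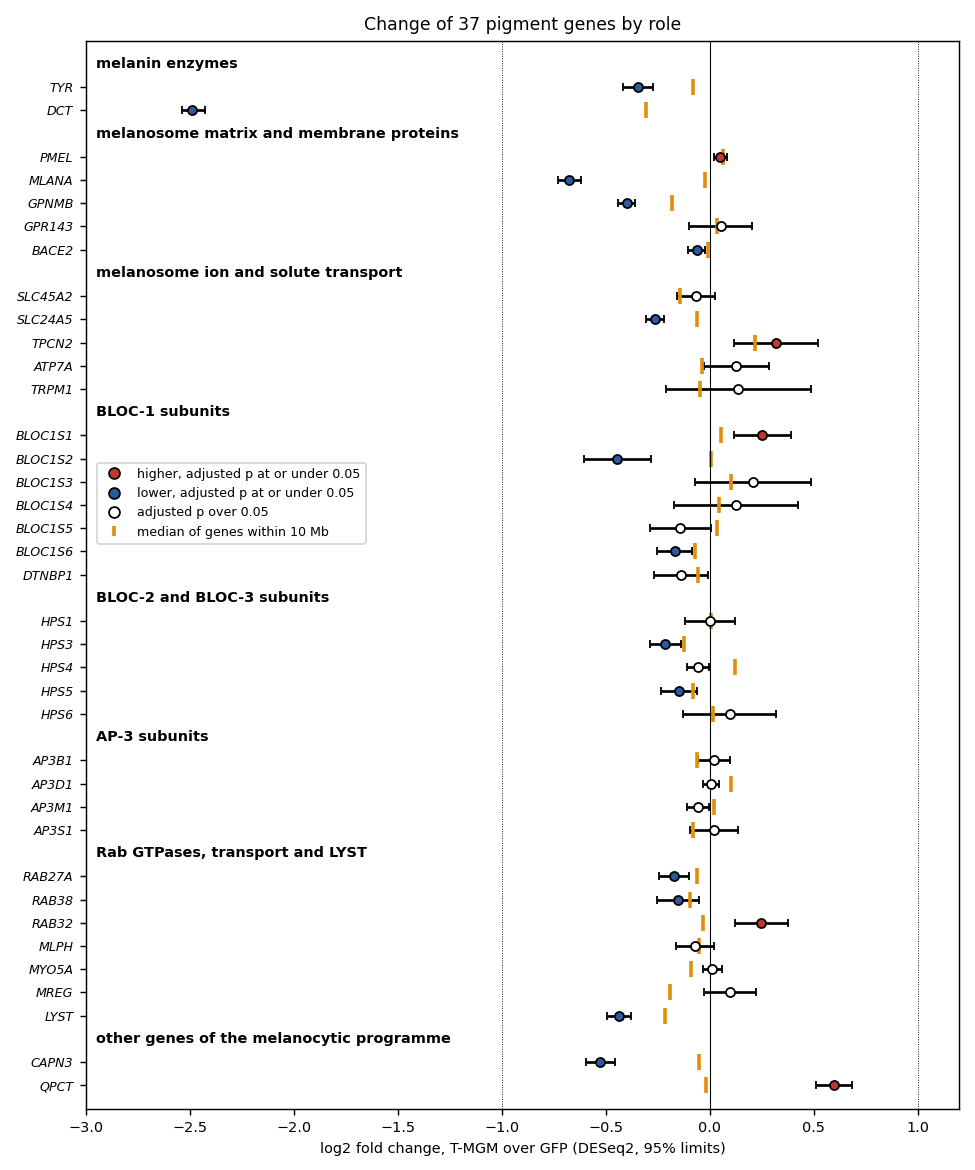
Log2 fold change (T-MGM over GFP, DESeq2) of the 37 members above the count floor, grouped by role, with 95% limits as bars, filled circles for members past an adjusted p of 0.05 and dotted lines at a 2-fold change. The orange ticks give the median of the other genes that start within 10 Mb of each member, which runs from -0.31 near DCT to 0.22 near TPCN2. Only genes with a mean of at least 50 normalized counts enter these medians. DCT at -2.49 is the only member beyond the dotted lines.

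The sequence before the start site was examined first, because MITF is known to bind 6-letter E-box and M-box cores. RefSeq windows (GRCh38.p14, 250 bases before to 50 bases after the start) were matched for 32 of the 40 members, with none for PMEL, SLC45A2, RAB38, BLOC1S4, BACE2, AP3B1, AP3D1 and HPS1. CATGTG, read on either strand (CACATG on the other), was present in 10 of the 32 windows (31.2%), against 11.1% of all 35116 windows and 8.93% of 22198 windows of protein-coding genes. Of these 10 members, 4 had reduced counts in the libraries labelled T-MGM (TYR, GPNMB, SLC24A5 and LYST), 0 were higher, 4 did not pass the test (TRPM1, GPR143, AP3S1 and BLOC1S3) and 2 were at the count floor (TYRP1 and OCA2). Among all 38 members with an adjusted p, 14 (36.8%) were lower. The 2 sets are unlike, since TYRP1 and OCA2 have no adjusted p and the 38 include members without a window. MLANA, CAPN3, BLOC1S2, BLOC1S6, RAB27A, HPS3 and HPS5 were lower without CATGTG in their windows. Whether these letters and the change go together was not tested. CACGTG, its own reverse complement, was present in 6 windows (18.8%), against 7.26% of all windows and 8.34% of those of protein-coding genes. Of these 6 members, HPS3 and HPS5 were lower, BLOC1S1 was higher, and MLPH, BLOC1S3 and ATP7A did not pass. TGAGTCA, the AP-1 letters (TGACTCA on the other strand), was present in 2 windows (6.25%), those of GPNMB and LYST. Its share was 4.95% of all windows and 4.01% of those of protein-coding genes. The windows are a description of letters and not of binding. The RefSeq start of DCT lay 69724 bases upstream of its GENCODE start, so no statement on its promoter is made. Its window, with none of the 3 motifs, is still counted among the 32. The RefSeq starts of GPR143, GPNMB, TYRP1, MLPH and QPCT lay 20450, 10808, 7946, 1823 and 1803 bases inside the GENCODE gene. These windows are counted as well. The 250 bases before the start are given for 6 members with CATGTG, which include the 4 that were lower, and for MLANA, which was lower with none of the 3 motifs. Capitals mark the motif letters, and all sequences run 5′ to 3′ in the sense of the gene. TYR is at chr11:89177625-89177874 (plus strand), TYRP1 at chr9:12693135-12693384 (plus), SLC24A5 at chr15:48120740-48120989 (plus), GPNMB at chr7:23246525-23246774 (plus), LYST at chr1:235883714-235883963 (minus), TRPM1 at chr15:31161161-31161410 (minus) and MLANA at chr9:5890639-5890888 (plus).
TYR: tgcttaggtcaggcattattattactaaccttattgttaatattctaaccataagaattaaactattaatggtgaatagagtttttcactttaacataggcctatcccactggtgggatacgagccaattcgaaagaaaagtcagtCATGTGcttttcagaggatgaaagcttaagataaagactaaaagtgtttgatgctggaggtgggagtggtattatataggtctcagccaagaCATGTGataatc
TYRP1: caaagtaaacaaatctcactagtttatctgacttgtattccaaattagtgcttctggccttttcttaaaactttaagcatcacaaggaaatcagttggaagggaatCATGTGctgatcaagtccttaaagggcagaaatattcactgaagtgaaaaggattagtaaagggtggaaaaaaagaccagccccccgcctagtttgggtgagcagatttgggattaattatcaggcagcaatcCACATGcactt
SLC24A5: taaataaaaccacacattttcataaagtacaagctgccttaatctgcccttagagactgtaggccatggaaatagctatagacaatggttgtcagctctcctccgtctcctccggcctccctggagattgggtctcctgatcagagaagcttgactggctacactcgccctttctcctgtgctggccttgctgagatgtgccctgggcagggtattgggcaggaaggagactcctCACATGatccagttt
GPNMB: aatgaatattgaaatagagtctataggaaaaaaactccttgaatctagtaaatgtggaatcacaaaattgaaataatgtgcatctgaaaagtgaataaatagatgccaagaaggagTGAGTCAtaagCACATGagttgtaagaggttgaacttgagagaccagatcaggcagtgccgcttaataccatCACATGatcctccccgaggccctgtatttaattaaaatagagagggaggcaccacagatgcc
LYST: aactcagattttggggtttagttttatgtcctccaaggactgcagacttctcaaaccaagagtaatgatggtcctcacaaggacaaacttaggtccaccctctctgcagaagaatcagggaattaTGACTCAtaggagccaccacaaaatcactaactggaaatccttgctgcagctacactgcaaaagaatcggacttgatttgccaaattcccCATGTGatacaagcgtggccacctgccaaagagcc
TRPM1: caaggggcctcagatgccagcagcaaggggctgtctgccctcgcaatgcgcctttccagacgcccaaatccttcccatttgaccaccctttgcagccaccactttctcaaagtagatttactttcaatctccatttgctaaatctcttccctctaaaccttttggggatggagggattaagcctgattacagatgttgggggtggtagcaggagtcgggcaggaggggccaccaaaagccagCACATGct
MLANA: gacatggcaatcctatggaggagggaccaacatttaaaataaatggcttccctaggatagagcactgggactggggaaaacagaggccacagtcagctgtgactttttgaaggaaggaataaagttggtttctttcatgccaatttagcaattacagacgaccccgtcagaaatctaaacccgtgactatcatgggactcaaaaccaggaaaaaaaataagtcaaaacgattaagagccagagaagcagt

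CATGTG began 104 and 12 bases before the TYR start, 144 and 11 before TYRP1, and 15 before SLC24A5. In GPNMB it began 123 and 62 bases before the start, with TGAGTCA at 134. In LYST it began 35 bases before the start, with TGACTCA at 125. In TRPM1 it began 8 bases before the start.

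The 3 melanin enzymes differed widely. Tyrosinase (TYR, chromosome 11, 89177875 to 89295759), which carries out the first and limiting oxidation of tyrosine, stood at 3228, 3502 and 3473 normalized counts in the GFP libraries and at 2616, 2650 and 2759 in those labelled T-MGM. The groups did not overlap, and TYR fell by 0.35 on the log2 scale (SE 0.04, adjusted p = 6.21e-19 by DESeq2). Dopachrome tautomerase (DCT, chromosome 13, 94436811 to 94479682), which acts downstream of tyrosinase and turns dopachrome into a carboxylated indole, stood at 11358, 11419 and 11601 normalized counts in the GFP libraries. The libraries labelled T-MGM held 2039, 2144 and 1968, far under every GFP library. DCT fell 5.6-fold, with a log2 fold change of -2.49 (SE 0.03, 95% limits -2.54 to -2.43). It had the most negative Wald statistic of the 19135 genes tested, and ranked 174th from the most negative by log2 fold change. Its DESeq2 adjusted p was too small to be stored and was written as 0. TYRP1, the third enzyme of the family, had 3, 0 and 0 counts in the GFP libraries and 0, 0 and 6 in those labelled T-MGM, with a mean under 3 counts in both groups, and no fold is given.

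The order of DCT and TYR was exchanged. Per length, DCT stood above TYR in every GFP library, at 54.4, 57.5 and 57.2 TPM against 35, 38.4 and 38. It stood below TYR in every library labelled T-MGM, at 8.06, 8.91 and 8.84 TPM against 25.9, 26.4 and 27.1. The ratio of DCT to TYR went from 1.52 ± 0.0304 (SD, n = 3) to 0.325 ± 0.0137, with no overlap between groups. Among the 40 members DCT ranked 7th by TPM in each GFP library and 27th or 28th in the libraries labelled T-MGM. The summed TPM of the 3 enzymes was 93.5 ± 3.53 and 35.1 ± 1.04, which is 62.4% lower.

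**Figure D2:**
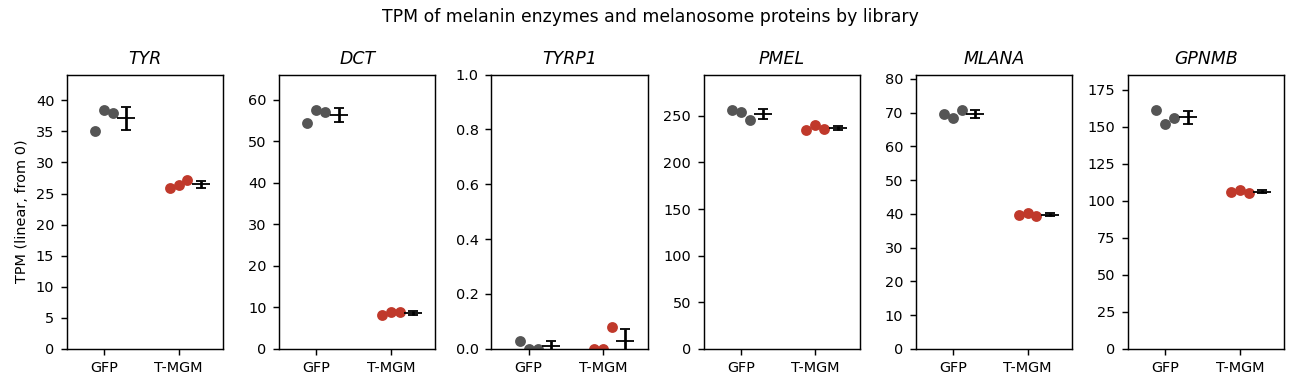
TPM of 6 members in each library (linear axes from 0, a separate scale for each gene), with 3 GFP libraries in grey, 3 libraries labelled T-MGM in red, and a black mark for the mean with its SD. DCT went from 54.4 to 57.5 TPM down to 8.06 to 8.91 TPM, TYR, MLANA and GPNMB were lower without overlap, PMEL lay between 235 and 256 TPM throughout, and TYRP1 was at or under 0.08 TPM.

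Among the proteins of the melanosome matrix and membrane, 3 of 5 were lower and 1, PMEL, was higher, against the 19.2% of all genes tested in each direction, and the sign of PMEL turned in 5 of the 16 alternatives. MLANA (MART-1), a melanosome membrane protein that partners PMEL, stood at 5987, 6091 and 6219 normalized counts in the GFP libraries and at 3927, 3707 and 3818 in those labelled T-MGM. It fell by 0.68 on the log2 scale (SE 0.03, adjusted p = 4.61e-121 by DESeq2), a change of 1.6-fold with no overlap. GPNMB, a glycoprotein related to PMEL, went from 19083, 17857 and 18307 to 13917, 14094 and 13873 normalized counts and fell by 0.40 on the log2 scale (SE 0.02, adjusted p = 2.32e-82 by DESeq2). PMEL itself, the fibril protein and the most abundant member per length in all 6 libraries, stood at 21766, 21739 and 21123 against 22225, 22592 and 22138 normalized counts. Its groups did not overlap, but the difference was 1.04-fold (log2 fold change of 0.05, SE 0.02, adjusted p = 0.00559 by DESeq2), and its direction depended on the scaling, being negative with total counts (-0.0025), after correction for transcript GC content and length, called GC correction here (-0.016), and in TPM (-0.087). BACE2, the protease that trims PMEL into its fibril-forming part, fell by 0.06 on the log2 scale (SE 0.02, adjusted p = 0.0049 by DESeq2), a call that was lost without GFP replicate 1 (adjusted p of 0.0721) or T-MGM replicate 3 (0.0856). GPR143, a receptor of the melanosome membrane, overlapped between groups (763 ± 22.2 and 790 ± 77.8 normalized counts, SD, n = 3). PMEL overlaps CDK2, and MLANA overlaps KIAA2026, on the opposite strand, as SLC24A5 does MYEF2, RAB27A does PIGB and LYST does LYST-AS1. HPS3 likewise overlaps CP, and BLOC1S1 overlaps ITGA7. The counts may hold reads of both genes if strand was not used. These are examples, and other members, passing ones among them, also overlap genes on either strand.

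Of the 7 transporters, 4 did not pass, 1 was lower, 1 was higher and OCA2 was not tested. That is 16.7% of those tested in each direction, against 19.2% of all genes tested. SLC24A5, a potassium-dependent sodium and calcium exchanger, stood at 7657, 7602 and 7729 normalized counts in the GFP libraries against 6303, 6450 and 6391 in those labelled T-MGM. It fell by 0.26 on the log2 scale (SE 0.02, adjusted p = 1.25e-29 by DESeq2) without overlap, and the value was -0.12 after GC correction and -0.41 in TPM. TPCN2, a cation channel whose activity makes melanosomes more acidic, went the other way, from 386, 317 and 352 to 446, 413 and 454 normalized counts, with no overlap. Its log2 fold change was 0.32 (SE 0.1, adjusted p = 0.00624 by DESeq2), and the call was lost without GFP replicate 2 (adjusted p of 0.0854) or T-MGM replicate 3 (0.051), after GC correction (0.0624) and in TPM. The genes within 10 Mb of TPCN2 with a mean of at least 50 normalized counts had a median of 0.22, the highest beside any member. SLC45A2, which raises melanosomal pH, had a log2 fold change of -0.07 (DESeq2 adjusted p of 0.28). The copper pump ATP7A, which loads tyrosinase with copper, had 0.13 (0.208 in the same test), and the channel TRPM1, host of MIR211, had 0.14 (0.618). OCA2, the chloride channel of the albinism locus, had 0 counts in every GFP library and 4, 0 and 1 in those labelled T-MGM, and the exchanger SLC24A4 had 2, 9 and 2 counts against 0, 1 and 1 (DESeq2 adjusted p of 0.131), so that both are near the floor of 3 counts and no fold is given.

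BLOC-1 sorts cargo out of early endosomes towards melanosomes, and its subunits did not move together. BLOC1S2 fell, from 661, 694 and 696 normalized counts in the GFP libraries to 495, 467 and 540 in those labelled T-MGM, without overlap. The change was -0.45 on the log2 scale (SE 0.08, adjusted p = 3.30e-07 by DESeq2), and the call was lost in TPM without a filter on low values (limma adjusted p of 0.113). BLOC1S6 (pallidin) fell by 0.17 (SE 0.04, adjusted p = 2.69e-04 by DESeq2), while BLOC1S1 was higher by 0.25 (SE 0.07, adjusted p = 0.0013 by DESeq2), and both calls were lost after GC correction (adjusted p of 0.208 and 0.191), that of BLOC1S1 in TPM too. The other 4 subunits did not pass, with log2 fold changes of 0.21 for BLOC1S3, 0.13 for BLOC1S4, -0.14 for BLOC1S5 and -0.14 for DTNBP1 (dysbindin), and DESeq2 adjusted p between 0.0865 and 0.581. BLOC1S5 shares its strand with 2 read-through genes, so its count is uncertain. BLOC1S1 overlaps ENSG00000258311 on its own strand, so its count is uncertain too.

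In BLOC-2, which acts in tubular carriers, HPS3 fell by 0.22 on the log2 scale (SE 0.04, adjusted p = 1.05e-07 by DESeq2), and HPS5 fell by 0.15 (SE 0.04, adjusted p = 0.00239 by DESeq2), a call that was lost after GC correction (adjusted p of 0.17) and in TPM. HPS6, the third subunit, had a log2 fold change of 0.09 with overlapping groups (361 ± 57.5 and 387 ± 20.4 normalized counts). The BLOC-3 subunits HPS1 and HPS4, which together activate RAB32 and RAB38, had log2 fold changes of 0.0017 and -0.06 and did not pass (DESeq2 adjusted p of 0.989 and 0.0692). The 4 AP-3 subunits measured here, which form an adaptor that brings tyrosinase to melanosomes, did not pass in either direction with median-of-ratios scaling. Their log2 fold changes were 0.02 for AP3B1, 0.0066 for AP3D1, -0.06 for AP3M1 and 0.02 for AP3S1, with DESeq2 adjusted p from 0.0873 to 0.855. For AP3D1, the most highly read of them at 11850 ± 234 and 11909 ± 184 normalized counts, the 95% limits of the log2 fold change were -0.03 and 0.05 with this scaling. After GC correction AP3B1 (0.15, DESeq2 adjusted p of 3.86e-04) and AP3S1 (0.17, 0.0165) passed as higher and AP3D1 (-0.11, 5.42e-07) as lower, and AP3M1 passed as lower with total counts (-0.11, 2.73e-04) and in TPM, where AP3S1 also passed as lower with the filter, so no direction is given for AP-3.

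Among the Rab GTPases and transport genes, RAB27A, which docks melanosomes at the cell periphery, fell by 0.17 on the log2 scale (SE 0.04, adjusted p = 1.87e-05 by DESeq2), and RAB38 fell by 0.15 (SE 0.05, adjusted p = 0.0106 by DESeq2). RAB32, which shares with RAB38 the delivery of melanin enzymes, was higher by 0.25 (SE 0.06, adjusted p = 4.81e-04 by DESeq2), from 886 ± 64.2 to 1051 ± 18.3 normalized counts with no overlap. These 3 calls were each lost in at least 1 alternative (RAB27A and RAB38 after GC correction, RAB38 also without GFP replicate 2, RAB32 in TPM). LYST, the lysosomal trafficking regulator whose loss gives giant melanosomes, was lower by more, from 4835, 4857 and 4664 normalized counts to 3449, 3550 and 3600 without overlap. It fell by 0.44 on the log2 scale (SE 0.03, adjusted p = 2.05e-45 by DESeq2). The RAB27A partners MLPH and MYO5A, and MREG (melanoregulin), did not pass, with log2 fold changes of -0.07, 0.01 and 0.10 (DESeq2 adjusted p of 0.236, 0.744 and 0.24).

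The remaining 2 members moved apart. CAPN3, a calpain protease, went from 3716, 3598 and 3501 normalized counts in the GFP libraries to 2547, 2521 and 2440 in those labelled T-MGM and fell by 0.53 on the log2 scale (SE 0.04, adjusted p = 2.02e-48 by DESeq2). QPCT, a glutaminyl cyclase, went from 2082, 2201 and 1937 to 3259, 3061 and 3095 normalized counts, a rise of 0.60 on the log2 scale (SE 0.04, adjusted p = 8.23e-42 by DESeq2) or 1.51-fold. Neither gene overlapped between groups, and QPCT was the member with the largest increase. CAPN3 overlaps ZNF106 on the opposite strand.

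**Figure D3:**
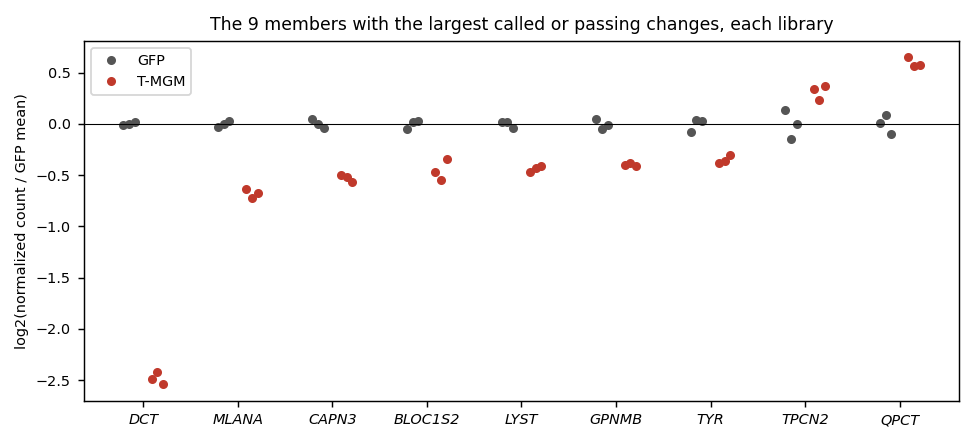
Log2 ratio of the normalized count in each library to the GFP mean, for DCT and the 8 members under 2-fold with the largest passing changes, with GFP libraries in grey and libraries labelled T-MGM in red. DCT lies near -2.5 in each library labelled T-MGM, MLANA to TYR lie lower by less than 1, and TPCN2 and QPCT lie higher, with no overlap between groups for any of the 9.

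Summed over the 40 members, TPM was 1352 ± 6.44 in the GFP libraries and 1082 ± 21 in those labelled T-MGM (SD, n = 3 each), which is 20% lower, and without DCT it was 1295 ± 8.09 and 1073 ± 21, which is 17.2% lower. The median gene also lay 0.13 lower in log2 of TPM plus 1, and the sums are not corrected for that. By role, the sum was 19.1% lower for the matrix and membrane proteins, 21.6% for the transporters and 9.58% for the AP-3 subunits. Of the transporter sum, SLC24A5 alone held 87 of 110 TPM in the GFP libraries and 65.2 of 86.1 TPM in those labelled T-MGM. No other transporter passed as lower in DESeq2 with median-of-ratios scaling. PMEL, GPNMB, BACE2 and SLC24A5 held ranks 1 to 4 in all 6 libraries, so the order of the most abundant members differed mainly by the drop of DCT and by QPCT, which moved from rank 14 to 8 by mean TPM.

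The strength of each call varied among members. Of the 19 members past the threshold, 9 kept direction and call under all 16 alternative analyses, namely TYR, DCT, MLANA, GPNMB, SLC24A5, HPS3, LYST and CAPN3, which were lower, and QPCT, which was higher. Over those alternatives the log2 fold change of DCT ran from -2.7 to -2.4, that of MLANA from -0.80 to -0.56 and that of TYR from -0.48 to -0.29, and DCT was the sole member over 2-fold in each. The ranges were -0.42 to -0.12 for SLC24A5, -0.31 to -0.13 for HPS3, -0.52 to -0.29 for LYST and 0.39 to 0.64 for QPCT. Of the 18 members above the floor that did not pass, 13 changed sign in at least 1 alternative, and 13 passed the threshold in at least 1. DTNBP1 passed as lower in 5 of the 16 (total counts, the 3 TPM fits and GC correction), and HPS1 passed as lower in TPM (-0.25, limma adjusted p of 0.0174). Position was compared as well, by the median log2 fold change of the other genes that start within 10 Mb. Only genes with a mean of at least 50 normalized counts were taken for this. Whole chromosome arms were shifted between the groups in an earlier look at these data, and values by arm are not given here. These medians lay between -0.31 (30 genes near DCT) and 0.22 (264 genes near TPCN2), and with the median subtracted 18 of the 19 passing members kept their sign, PMEL being the exception at -0.013. After this subtraction DCT was at -2.18, MLANA at -0.65, LYST at -0.22 and QPCT at 0.62. HPS3 was at -0.089, HPS5 at -0.065, RAB38 at -0.054, GPNMB at -0.22 and TPCN2 at 0.10. Before it, they were at -0.22, -0.15, -0.15, -0.40 and 0.32. Among passing members RAB32 (0.28), BLOC1S2 (-0.45) and QPCT were not reduced by it. How much of each change belongs to its region was not tested.

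**Figure D4:**
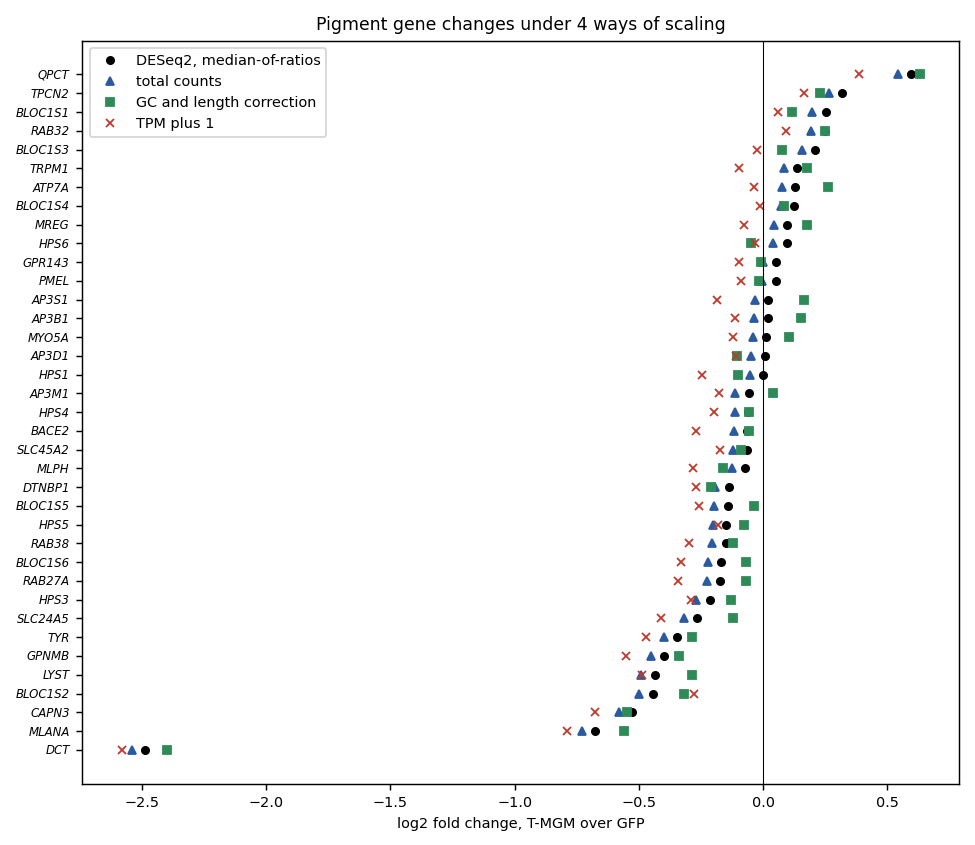
Log2 fold change (T-MGM over GFP) of the 37 members above the floor in DESeq2 with median-of-ratios scaling, with total counts, after GC and length correction, and in log2 of TPM plus 1. QPCT, TPCN2, BLOC1S1 and RAB32 stay above 0 and HPS4 and the members listed under it stay below 0 in all 4, while PMEL and others between them cross it.

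A second list of 68 genes, not members, covers other parts of the same pathways: further subunits, HOPS and Rab regulators, AP-1, SNAREs and motors, PMEL processing, ion and cystine handling, phosphoinositides and pigmentation signals. Of 63 tested, 34 (54%) passed, 16 higher (25.4%) and 18 lower (28.6%), against 19.2% of all genes tested in each direction and 26.4% higher and 27.6% lower among genes with a mean of at least 50 normalized counts, with a median log2 fold change of -0.02. Only MCOLN3, a cation channel of endolysosomes, passed with over 2-fold (1.59% of those tested, against 3.26% of all genes), at 242, 299 and 230 normalized counts in the GFP libraries and 600, 575 and 600 in those labelled T-MGM (log2 fold change of 1.2, SE 0.1, adjusted p = 3.95e-29 by DESeq2). The largest Wald statistics among the higher genes belonged to LEF1, a Wnt effector (0.46), FURIN, a proprotein convertase (0.55), and APOE, which helps PMEL form fibrils (0.70). Among the lower genes they belonged to EDNRB, the endothelin receptor of melanocytes (-0.72), SLC7A11, the cystine importer that feeds pheomelanin (-0.74), and MFSD12, needed for cysteine import into melanosomes (-0.30). The adjusted p of these 6 genes was at most 9.28e-31 in DESeq2.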

How the data were processed

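RNA sequencing covered 6 libraries of WM164 cells, 3 labelled as overexpressing GFP and 3 as overexpressing T-MGM. Groups and replicate numbers came from the sample titles, and the members and gene lists were chosen with earlier results of these data known.

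The authors trimmed reads with cutadapt (1.8.1), discarded read pairs with an end under 25 bases, aligned to GRCh38 with STAR (2.7.7a), and used featureCounts to count reads with a unique alignment in each gene; versions are from the submitters' processing notes. The deposited counts are whole numbers, not normalized, with replicates kept apart. The deposited TPM values, made by the authors with RSEM (1.3.0), scale for transcript length and depth. The labels name a kit without strand information and the study's methods a strand-specific kit, so genes that overlap on opposite strands are uncertain. The annotation release is not given in the sources used here.

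Counts of all genes were fitted in DESeq2 1.42.0 (R 4.3.3) by a 2-sided Wald test on the group, without shrinkage, scaled by median-of-ratios size factors, with Benjamini-Hochberg adjustment over all genes tested with independent filtering at 0.05. Normalized counts are counts divided by these size factors. A gene passed, and was called higher or lower, at an adjusted p at or under 0.05; members that also changed over 2-fold were counted separately. A group with at most 3 counts in every library was taken as at the floor, which covers counting error only. The 95% limits use the SE of DESeq2. Replicates were checked for duplication: libraries of a group differed beyond sampling noise (chi-square per degree of freedom of 2.84 to 5.23), so none was merged.

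The alternatives were edgeR 4.0.16 (quasi-likelihood, TMM), TMM factors or total counts in DESeq2, a minimum of 10 counts in 3 libraries, the replicate number as a block, no independent filtering, each library left out in turn, limma 3.58.1 with a trend on log2 of TPM plus 1 or 0.1 (with and without a minimum of 0.5 TPM in 3 libraries), and lowess offsets for transcript GC content and length (span 0.3). DESeq2 with the main settings, edgeR and a limma fit were tested on simulated counts, and the other steps were not. Values per library were given for the 3 melanin enzymes, PMEL, MLANA, members past both thresholds, and the 8 passing members under 2-fold with the largest changes; SLC24A5 was added after its values were seen. Of the second list, genes past both thresholds and the 3 in each direction with the largest Wald statistics were named. Positions and overlaps are from GENCODE 44, which holds 99.3% of the gene identifiers, and sequences are from RefSeq (GRCh38.p14).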

Additional observations from a re-analysis of the deposited data

How the results depend on the processing

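All 16 alternatives were run, and DCT was the sole member over 2-fold in each. The number of lower members was 13 to 21 (14 in the report) and the number of higher members 4 to 7 in the count fits (5 in the report), but 1, 1 and 1 in the fits to TPM plus 1, TPM plus 0.1 and TPM plus 1 without a filter, where the median gene lay -0.13, -0.15 and -0.13 from 0. The second list had 34 genes past the threshold, 19 in TPM without a filter, and 29 to 32 with a library left out. The median log2 fold change of the members, -0.06, was -0.0503 with TMM factors, -0.11 with total counts, and -0.19, -0.20 and -0.18 in the 3 TPM fits; with a library left out it ran from -0.066 to -0.047.

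Signs turned for members near 0. With total counts they were PMEL -0.0025, GPR143 -0.0018, HPS1 -0.052, AP3B1 -0.035, AP3D1 -0.047, AP3S1 -0.034 and MYO5A -0.041; after GC and length correction PMEL -0.016, GPR143 -0.0065, HPS1 -0.099, HPS6 -0.048, AP3D1 -0.11 and AP3M1 0.041. In TPM plus 1 (the same values without the filter) and TPM plus 0.1 they were PMEL -0.087 and -0.088, GPR143 -0.098 and -0.11, ATP7A -0.038 and -0.056, TRPM1 -0.097 and -0.13, BLOC1S3 -0.025 and -0.041, BLOC1S4 -0.014 and -0.020, HPS1 -0.25 and -0.26, HPS6 -0.032 and -0.040, AP3B1 -0.11 and -0.12, AP3D1 -0.11 and -0.11, AP3S1 -0.19 and -0.19, MYO5A -0.12 and -0.12, and MREG -0.076 and -0.085. With a library left out, ranges that cross 0 were GPR143 -0.0087 to 0.13, HPS1 -0.057 to 0.044, AP3B1 -0.018 to 0.039, AP3D1 -0.0071 to 0.022, AP3S1 -0.039 to 0.066 and MYO5A -0.0039 to 0.037. The cause of these shifts was not tested.

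Calls lost when a library was left out were BACE2 (without GFP replicate 1 or T-MGM replicate 3), TPCN2 (without GFP replicate 2 or T-MGM replicate 3), PMEL (without GFP replicate 3; DESeq2 adjusted p of 0.0815) and RAB38 (without GFP replicate 2; DESeq2 adjusted p of 0.0631). The replicate numbers did not pair the libraries: deviations from the group means correlated at -0.0067, -0.058 and 0.029 between same-numbered libraries over 12654 genes. With the replicate number as a block, 13 members were lower and 5 higher, RAB38 being lost (DESeq2 adjusted p of 0.0748), and 26 genes of the second list passed. TYRP1, OCA2 and SLC24A4 had at most 3 counts in every library of 1 group, and no change is given for them.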

Other observations

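Within the second list, calls went both ways in each part, beside 19.2% of all genes tested in each direction, and 26.4% higher and 27.6% lower among those with a mean of at least 50 normalized counts. Of 13 HOPS and Rab regulators tested, which steer vesicles to lysosomes and melanosomes, 5 were lower and 2 higher. Of 12 genes of ion, copper and cystine handling, 5 were lower and 1 higher, the latter being MCOLN3. Of 6 genes of PMEL processing and sorting, 3 were higher and 1 lower. Of 12 pigmentation regulators with an adjusted p, 4 were higher and 3 lower, of 12 genes of AP-1, SNAREs and motors 3 were higher and 2 lower, of 4 phosphoinositide and lysosome-related genes 2 were higher and 1 lower, and of 4 further subunits of BLOC-1 and AP-3 1 was higher and 1 lower. All counts are at a DESeq2 adjusted p at or under 0.05, and differences between these parts were not tested.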
